A study of Mus musculus with 12 samples.

Results

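The sites described here are poly(A) site clusters whose listed polyadenylation signal lies far from the canonical hexamer AATAAA. They were chosen by the listed hexamer alone: it had to differ from AATAAA, the most frequent entry, at 2 or more bases and hold at most 4 A, at any distance from the cluster. Mitochondrial clusters were left out. The rule gave 2680 of 145099 nuclear clusters (1.85%), or 2.07% of the 129401 with any hexamer (95% Wilson interval 1.99 to 2.15%). All 2680 differed from AATAAA at exactly 2 bases, and they are called double variants below.

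The clusters come from 2P-seq, which sequences inward from the poly(A) tail, of mouse embryonic stem cells. The cells were clones of the V6.5 line with a conditional knockout of Exosc3 (genotype Exosc3 CKO), a core subunit of the nuclear RNA exosome, in which doxycycline keeps Exosc3 present (dox+, Exosc3+) and its removal takes Exosc3 away (dox-, Exosc3-). The labels describe 6 groups of 2 libraries: dox+ at 0.1 μg/ml and dox- at 3 days, and dox+ and dox- at 2 days with 15 μM of U1 AMO, an antisense morpholino oligonucleotide against U1 snRNP, or of Scr AMO, its scrambled control, introduced by nucleofection 8 hours before collection. All groups carry the conditional knockout. How many clones were used, and whether the libraries of a group came from separate cultures, is stated in none of the labels. The catalogue has 1 row per cluster for the whole series, and of its 7 columns 0 hold a value of a library. The level of these sites in each group, the depth, stem cell markers and the effects of Exosc3 removal or of U1 AMO were therefore not analysed here.

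A polyadenylation signal is a hexamer in the nascent RNA, upstream of the cleavage point, that is recognised by the CPSF30 and WDR33 subunits of the cleavage and polyadenylation specificity factor. AAUAAA binds best, AUUAAA is its main natural variant, and other single changes are used with lower efficiency, often together with flanking U-rich, UGUA or GU-rich elements. Hexamers changed at more than 1 base are generally held to be weak or inactive. A hexamer listed at a cluster is a match of letters and does not show that the factor uses it.

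The 9 double variants are shown here because they define the class and because each is compared below with the hexamers that carry 1 of its changes. They are written 5′ to 3′ in the DNA letters of the catalogue (T for U), with the bases that differ from AATAAA in capitals, each after its changes, and in the text they are named in capitals throughout. A change gives the base of AATAAA, its position counted from 1 at the 5′ end, and the base of the variant.
Changes T3C and A6T: aaCaaT
Changes A1T and A4T: TatTaa
Changes T3G and A6T: aaGaaT
Changes A1C and A4T: CatTaa
Changes A1C and A6T: CataaT
Changes T3G and A4T: aaGTaa
Changes A1G and A4T: GatTaa
Changes A2C and A6T: aCtaaT
Changes A2T and A6T: aTtaaT

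Each of the 9 carried either A4T or A6T. A4T was in 4 of them (1313 sites) and A6T in 5 (1367 sites). The other change was at base 1 in TATTAA (A1T), CATTAA and CATAAT (A1C) and GATTAA (A1G). It was at base 2 in ACTAAT (A2C) and ATTAAT (A2T), and at base 3 in AACAAT (T3C), AAGAAT and AAGTAA (T3G). The 3 changed at base 3 hold 4 A, and the other 6 hold 3.

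They ranked from 20 to 36 by count among the 36 hexamers listed. AACAAT was listed for 455 sites, TATTAA for 444, AAGAAT for 409, CATTAA for 383, CATAAT for 289, AAGTAA for 263, GATTAA for 223 and ACTAAT for 212. ATTAAT was listed for 2 sites.

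Just outside the rule lie 11 hexamers that also differ from AATAAA at 2 bases but hold 5 A, with 6121 sites, all of them changed at base 3. Also just outside are AATTAA (495 sites) and AATAAT (450 sites), which carry A4T or A6T alone. Density at 15 to 30 nt, the usual position of a signal, over density at 61 to 100 nt was 1.39 to 2.83 for the double variants inside the rule. It ran from 1.74 to 6.49 for those with 5 A (for the 10 with a site in both windows), and was 3.22 for AATTAA and 4.88 for AATAAT.

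Which hexamer a cluster was listed with, where more than 1 lay in reach, was read from neighbouring clusters on a strand, where the hexamer listed for the upstream cluster also had to lie 8 to 95 nt upstream of the next one, whichever edge was used. There were 3420 such pairs, within bounds chosen after seeing the data. In 95 of them the upstream cluster had a double variant: the next cluster repeated it in 41, had another double variant in 1 and had a hexamer of another class in 53, including AATAAA or ATTAAA in 16. Other classes gave way too: the next cluster had a hexamer of another class in 181 of 418 pairs after an A-rich hexamer and in 377 of 1091 after a single variant. Where the upstream hexamer was AATAAA (1168 pairs) or ATTAAA (648 pairs), 0 of the next clusters were listed with a double variant, which allows a share of up to 0.257% after AATAAA and 0.463% after ATTAAA. Single variants and A-rich hexamers were likewise listed in 0 of those pairs, so this is not particular to double variants. After AATAAA, the next cluster had AATAAA in all 1168 pairs. After ATTAAA, it had ATTAAA in 426 and AATAAA in 222. A double variant was listed with a hexamer of another class in reach in 7 of 3325 pairs, of which 6 were A-rich and 1 was AATAAT. The order in which hexamers were searched is not stated in the labels. It decides which sites could be listed with a double variant, and so which sites enter the shares by distance, neighbour and run position below.

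Some double variants also overlap with other listed hexamers. For the 3 hexamers with A4T and a change at base 1, a further A completes ATTAAA. For AAGTAA it completes AGTAAA, a listed single variant. For ATTAAT, each of the 4 possible preceding bases completes a listed hexamer, which is AATTAA or 1 of the 3 hexamers with A4T and a change at base 1. Both ATTAAT sites had it at 100 nt, the largest distance listed, where the preceding base falls outside the range.

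Double variants were found at 15 to 30 nt less often than single variants or A-rich hexamers. The hexamer lay there in 29.2% of double-variant sites (782 of 2680, interval 27.5 to 30.9%). The comparison was with single variants, which are the 11 hexamers that change 1 base and hold at most 4 A, without ATTAAA, and with A-rich hexamers, which are the 14 with 5 or 6 A other than AATAAA. The share was 66.0% for the 26648 single-variant sites (interval 65.5 to 66.6%) and 35.9% for the 12457 A-rich sites (interval 35.1 to 36.8%). It was 83.3% for ATTAAA and 79.7% for AATAAA.

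Over the 19 autosomes the share for double variants ran from 24.1 to 37.5% with a median of 27.1%, and that for single variants from 63.5 to 68.3% with a median of 65.7%. The ranges did not overlap. The mean difference was -37.3 percentage points ± 4.03 (SD, n = 19), negative on 19 of 19 (adjusted p = 4.8e-05, 2-sided sign-flip permutation test over autosomes). A-rich hexamers ranged from 30.3 to 39.7% and overlapped with double variants. That difference was -6.94 percentage points ± 4.32, negative on 18 of 19 (adjusted p = 8.73e-05, same permutation test). It was -2.49 among lone sites and the most downstream sites of runs, where it missed the threshold (adjusted p = 0.278, permutation test). With the 2-base hexamers with 5 A moved from the A-rich hexamers to the class it was 2.42, positive on 14 of 19 (adjusted p = 0.0371, permutation test), so its direction depends on the limit of 4 A. No library replicates stand behind these values: the test measures how evenly a difference holds across the genome, and intervals cover counting error only.

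**Figure D1:**
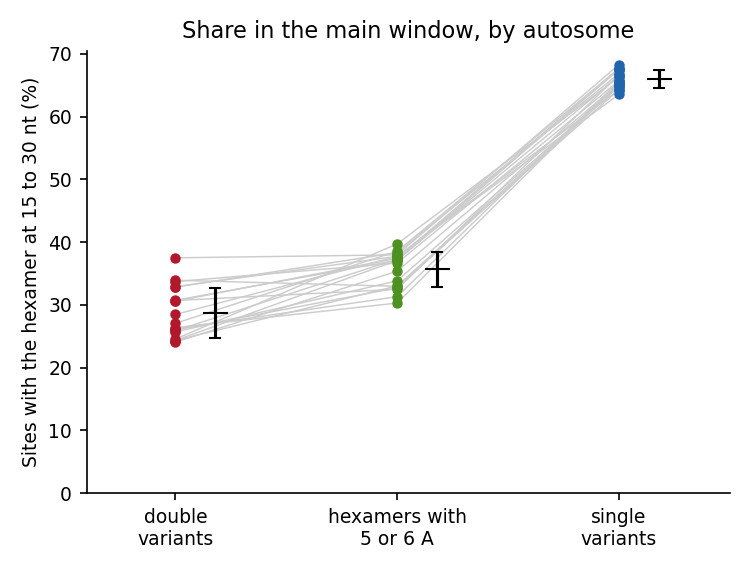
Percent of sites with the hexamer at 15 to 30 nt on each of 19 autosomes (points, joined by autosome) for double variants, hexamers with 5 or 6 A and single variants, with mean and SD as bars. Double variants lie between 24.1 and 37.5%, below the 63.5 to 68.3% of single variants on every autosome, and overlap with the hexamers with 5 or 6 A.

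The distances of double variants formed a low peak on a level floor. Their median distance was 41 nt (quartiles 22 and 70 nt), against 23 nt for single variants (quartiles 20 and 37 nt), 27 nt for A-rich hexamers and 21 nt for AATAAA. At 61 to 100 nt there were 22.7 double-variant sites per nt ± 5.22 (SD over 40 distances), beside a counting error of 4.76. At 18 to 24 nt there were 63.0 per nt, with the most, 76, at 23 nt. The count was 29.4 per nt at 31 to 39 nt and 22.2 at 40 to 60 nt, close to the floor.

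Sites above the floor were a minority. If the floor at 61 to 100 nt is carried under the window of 15 to 30 nt, 418.8 double-variant sites lie above it, or 15.6% of the class. The same sum gives 59.9% for single variants and 26.6% for A-rich hexamers. Among sites inside that window, distance averaged 22.2 nt ± 0.576 (SD, n = 19 autosomes) for double and 21.8 nt ± 0.118 for single variants, a difference of 0.413 nt, positive on 14 of 19 (adjusted p = 0.0209, permutation test). These averages include floor sites, and the floor weighs more for double variants. Above it lay 418.8 of the 782 double-variant sites in the window and 15964.8 of the 17598 single-variant sites. Whether the peaks themselves differ in place was not tested.

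**Figure D2:**
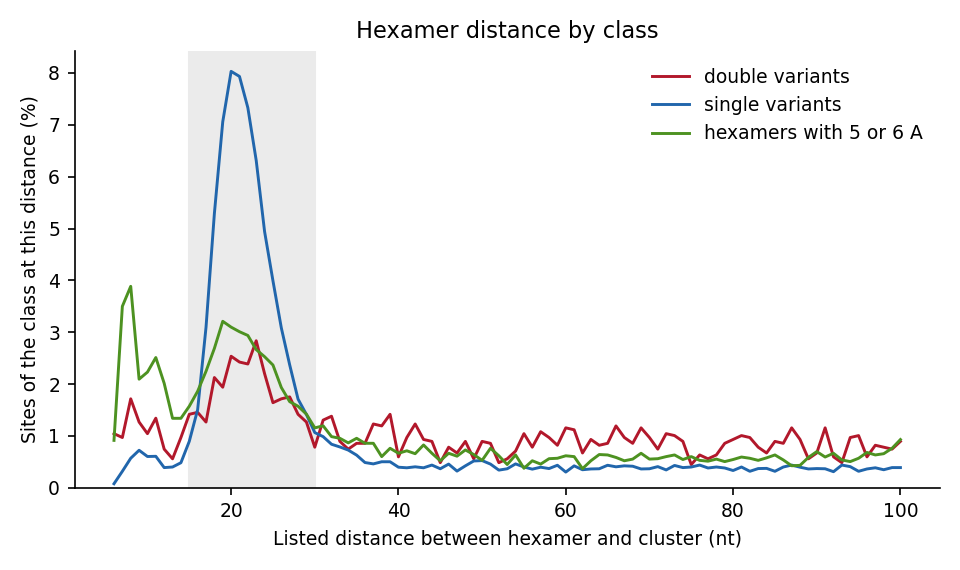
Percent of the sites of each class at each listed distance from 6 to 100 nt, for double variants, single variants and hexamers with 5 or 6 A, with the window of 15 to 30 nt shaded. Double variants have a low peak with 76 sites at 23 nt and a nearly level floor of 22.7 sites per nt beyond 60 nt, while single variants peak at 20 nt with 2140 sites.

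Density at 15 to 30 nt over density at 61 to 100 nt, called the placement ratio below, was 2.15 for the class (exact binomial interval 1.95 to 2.37), against 10.8 for single variants (interval 10.4 to 11.2), 3.84 for A-rich hexamers (interval 3.67 to 4.03), 37.7 for ATTAAA and 58.0 for AATAAA. The 8 double variants with sites in both windows all stood below the lowest single variant, AATTAA at 3.22 (interval 2.59 to 4.02). That interval overlaps with those of the double variants apart from CATAAT and ACTAAT. Double variants were 6 of the 8 lowest of 34 hexamers, and 4 hexamers of other classes, all A-rich, stood below the highest double variant.

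AACAAT had the highest placement ratio, 2.83 (interval 2.23 to 3.58), with 156 sites at 15 to 30 nt. CATTAA followed at 2.44 (interval 1.89 to 3.16) and AAGAAT at 2.37 (interval 1.84 to 3.04). AAGTAA stood at 2.09 (interval 1.51 to 2.90), TATTAA at 2.07 (interval 1.61 to 2.65) and GATTAA at 1.94 (interval 1.38 to 2.74). These 6 intervals overlap one another, so their order is not resolved. CATAAT stood at 1.67 (interval 1.22 to 2.27). The lowest was ACTAAT, at 1.39 (interval 0.961 to 2.00), and its interval alone of the 8 extended below 1. Of its 212 sites, 49 had the hexamer at 15 to 30 nt and 88 at 61 to 100 nt. The upper bound for ACTAAT was below the lower bound for AACAAT, but these are the extremes of the 8 and their difference was not tested.

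Each double variant was set against the 2 hexamers that carry 1 of its changes alone. The share at 15 to 30 nt was lower for the double variant in 16 of 16 such pairs, and so was the placement ratio. Over autosomes, 12 of the 16 differences in share passed an adjusted p of 0.05 (permutation test), all of them lower. Both changes alone stood higher than the double variant, past the threshold, for 5 of the 8 hexamers. The exceptions were CATTAA and the 2 hexamers with T3G.

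The gap was widest where the other change was at base 1 or 2. CATAAA had its hexamer at 15 to 30 nt in 71.2% of sites, CATTAA in 31.9% and CATAAT in 24.9%. The difference from CATAAA was -39.4 percentage points ± 8.29 (SD, n = 19) for CATTAA and -46.5 ± 12.6 for CATAAT, each negative on 19 of 19 (adjusted p = 4.8e-05, permutation test). GATAAA stood at 69.5% and GATTAA at 28.3%. TATAAA stood at 63.8% and TATTAA at 27.3%, and ACTAAA at 55.5% and ACTAAT at 23.1%. These 3 pairs were also lower on 19 of 19 autosomes.

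For these 5 hexamers the gaps against A4T or A6T alone were smaller. AATAAT had 46.4% at 15 to 30 nt, against 34.3% for AACAAT, 31.1% for AAGAAT, 24.9% for CATAAT and 23.1% for ACTAAT, and all 4 differences passed the test. AATTAA had 38.8%, against 27.3% for TATTAA and 28.3% for GATTAA, both of which passed. AAGTAA, at 27.4% and also outside these 5, did not (difference -8.35 percentage points ± 16.1, adjusted p = 0.0631, permutation test). Neither did CATTAA, at 31.9% (difference -4.80 ± 12.7, adjusted p = 0.164, permutation test).

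For the 3 hexamers changed at base 3 the gaps against A4T or A6T alone were the larger ones, at -13.7 percentage points for AACAAT, -16.4 for AAGAAT and -8.35 for AAGTAA. Here the hexamer with that change alone is A-rich and itself weakly placed. AAGAAA had 32.6% at 15 to 30 nt. AAGAAT, at 31.1%, differed from it by -2.17 percentage points ± 9.87 (adjusted p = 0.388, permutation test), and AAGTAA, at 27.4%, by -4.37 ± 10.9 (adjusted p = 0.146, permutation test). AACAAT differed from AACAAA, at 41.5%, by -7.82 ± 11.4, negative on 13 of 19 (adjusted p = 0.0155, permutation test).

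**Figure D3:**
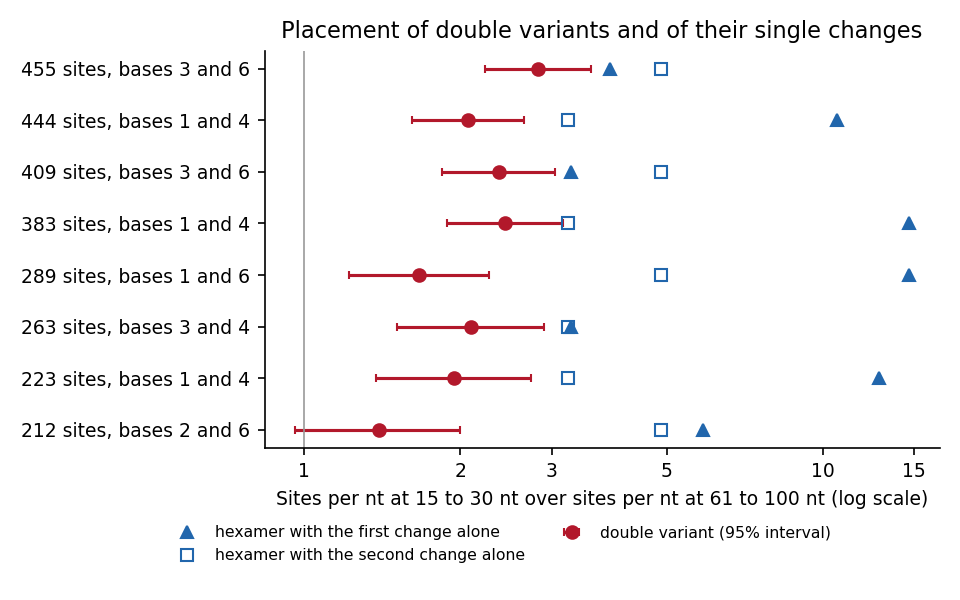
Sites per nt at 15 to 30 nt over sites per nt at 61 to 100 nt (log scale) for each of 8 double variants (circles with exact binomial 95% intervals) and for the 2 hexamers with 1 of its changes alone (triangles for the first change, squares for the second). Rows are named by the number of sites and the changed bases, from 455 sites (2.83) to 212 sites (1.39), and each circle lies to the left of both other marks.

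Within the class, no difference between kinds of change passed the test. Hexamers with A4T had 28.8% of sites at 15 to 30 nt and those with A6T 29.6%, a mean difference of -0.272 percentage points ± 5.35 (SD, n = 19, adjusted p = 0.845, permutation test). Hexamers changed at base 3 had 31.5% there and those changed at base 1 had 28.2%, a mean difference of 2.99 ± 8.24 (adjusted p = 0.178, permutation test). The shares at 61 to 100 nt, at 6 to 11 nt, of sites 1 nt wide and of sites with a neighbour within 1 kb did not pass either, and all 10 adjusted p-values of these permutation tests lay between 0.125 and 0.896.

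A smaller rise was present very close to the cluster. At 6 to 11 nt there were 33.0 double-variant sites per nt, 1.45 times the floor (interval 1.24 to 1.70), and 20.3 per nt at 12 to 14 nt. The ratio at 6 to 11 nt was 1.26 for single variants (interval 1.17 to 1.37) and 4.32 for A-rich hexamers (interval 4.07 to 4.58). For AATAAA it was 12.2 (interval 11.5 to 12.8) and for ATTAAA 2.63 (interval 2.37 to 2.93). Single variants, which hold 4 A, ran from 0.745 for ACTAAA to 1.80 for TATAAA. It was 1.88 for AACAAT (interval 1.29 to 2.71), 1.79 for AAGAAT (interval 1.20 to 2.60) and 1.71 for AAGTAA (interval 1.02 to 2.75), the 3 double variants with 4 A. It was 1.55 for CATTAA (interval 0.995 to 2.33) and 1.42 for TATTAA (interval 0.928 to 2.10), and for GATTAA, with 17 sites at 6 to 11 nt, the interval was 0.777 to 2.38. It was 0.741 for CATAAT (interval 0.371 to 1.35) and 0.909 for ACTAAT (interval 0.453 to 1.67). Each interval of a double variant with 3 A overlapped with each of those of double variants with 4 A.

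The floor of double variants was rarely a repeat of a hexamer already listed upstream. Of the 908 double-variant sites at 61 to 100 nt, 7.05% had the same hexamer listed for the next site upstream within 100 nt (interval 5.56 to 8.90%). This share was 22.1% for the 4083 single-variant sites at that distance (interval 20.9 to 23.4%). The difference over autosomes was -15.1 percentage points ± 4.47 (SD, n = 19), negative on 19 of 19 (adjusted p = 4.8e-05, permutation test). How hexamers were listed enters this share. With the upstream hexamer in reach, another class was listed in 53 of 95 pairs after a double variant. After a single variant it was 377 of 1091. The classes also differ in sites per hexamer, at most 455 for a double variant and 6404 for a single variant (TATAAA). They differ too in the share at 15 to 30 nt, 29.2% against 66.0%. How much of the difference these make up was not tested, and A-rich hexamers were not compared.

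Double-variant sites lay in denser stretches of the catalogue than single-variant sites. Another site on the same strand lay within 1 kb for 76.2% of them (interval 74.5 to 77.7%), 70.9% of single-variant sites (interval 70.3 to 71.4%), 65.4% of A-rich sites (interval 64.5 to 66.2%), 46.2% of AATAAA sites and 75.1% of sites without a hexamer (interval 74.4 to 75.8%). Over autosomes the difference from single variants was 5.53 percentage points ± 4.49, positive on 18 of 19 (adjusted p = 0.00048, permutation test). With the 2-base hexamers with 5 A in the class it was 1.24 and no longer passed (adjusted p = 0.106, permutation test). From A-rich hexamers it was 10.9 ± 4.39, positive on 19 of 19 (adjusted p = 4.8e-05, permutation test). From sites without a hexamer it was 1.68 ± 5.26, which did not pass (adjusted p = 0.233, permutation test). The nearest site lay a median of 162.5 nt away for double variants, 250.5 nt for single variants, 201 nt without a hexamer and 1272 nt for AATAAA.

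By hexamer the share with a neighbour within 1 kb ran from 73.3% for AAGAAT (interval 68.9 to 77.4%) to 80.9% for TATTAA (interval 76.9 to 84.2%), leaving out ATTAAT. Their intervals overlap. Single variants ran from 66.4% for AGTAAA to 77.4% for AATAGA, with AATTAA at 75.2% and AATAAT at 71.8%. The ranges of the classes overlap, so the difference does not hold against every single variant. The median gap of double variants ran from 118 nt for ACTAAT to 242 nt for AAGAAT.

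The neighbours of double variants carried the canonical signal less often than those of single variants. Neighbours over 100 and up to 1000 nt away were used, since listed distances end at 100 nt and closer sites can be listed with the same copy of a hexamer. Of 6061 such neighbours of double-variant sites, 20.1% had no hexamer (interval 19.1 to 21.2%) and 22.5% had AATAAA (interval 21.5 to 23.6%). Of 51018 neighbours of single-variant sites, 14.8% had none (interval 14.5 to 15.2%) and 27.8% had AATAAA (interval 27.5 to 28.2%). Over autosomes the share without a hexamer was higher by 4.93 percentage points ± 3.76 on 17 of 19 (adjusted p = 0.000222, permutation test). The share with AATAAA differed by -5.18 percentage points ± 4.41, negative on 17 of 19 (adjusted p = 0.00102, permutation test).

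Neighbours of A-rich sites stood close to those of double variants, with 24.3% AATAAA (interval 23.7 to 24.8%) and an interval of 18.5 to 19.5% for those without a hexamer, and this difference was not tested. Sites without a hexamer went further in the same direction. Of their neighbours, 30.6% also had none, and double variants stood below that by a mean difference of -9.51 percentage points ± 4.84, on 19 of 19 autosomes (adjusted p = 4.8e-05, permutation test). Dense runs give many pairs, so a few runs weigh heavily in such shares.

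Having AATAAA or ATTAAA somewhere within 1 kb was about as common for double variants, 52.9%, as for single variants, 52.0%. The difference over autosomes was 1.07 percentage points ± 3.86 (adjusted p = 0.297, permutation test). It was 2.56 with a reach of 5 kb, where it passed (adjusted p = 0.0237, permutation test), and -1.74 when the 2-base hexamers with 5 A were added to the class (adjusted p = 0.0295).

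Double variants were less often alone than single variants, and less frequent among the last sites of runs than among the first. Sites were joined into runs where same-strand gaps were at most 2 kb. Lone sites made up 16.5% of double variants (442 sites, interval 15.1 to 17.9%), 20.9% of single variants (interval 20.4 to 21.4%), 43.1% of AATAAA sites and 17.4% of sites without a hexamer. The difference from single variants was -4.25 percentage points ± 4.23, negative on 16 of 19 (adjusted p = 0.00208, permutation test). With the 2-base hexamers with 5 A in the class the sign changed, at 0.328 (adjusted p = 0.679, permutation test). From sites without a hexamer it was -1.24 ± 4.65 (adjusted p = 0.306, permutation test). By hexamer, the lone share of single variants ran from 15.3% for AATAGA to 25.1% for AGTAAA, with AATTAA at 18.6% and AATAAT at 19.6%. That of double variants ran from 13.5% for TATTAA to 19.3% for AACAAT, leaving out ATTAAT, so these ranges overlap.

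Within runs, 586 double-variant sites were the most upstream, 1314 lay in the middle and 338 were the most downstream. They made up 2.30% of the most upstream sites (interval 2.12 to 2.49%), 2.82% of middle sites (interval 2.67 to 2.97%) and 1.32% of the most downstream sites (interval 1.19 to 1.47%), against 0.933% of lone sites. The most downstream sites differed from the most upstream by -0.914 percentage points ± 0.551 over autosomes, negative on 18 of 19 (adjusted p = 4.8e-05, permutation test). The same order was seen elsewhere: A-rich hexamers made up 9.69% of the most upstream and 5.59% of the most downstream sites, and sites without a hexamer 15.3% and 6.96%. Single variants also had this order, with 21.1% and 15.4%. AATAAA went the other way, with 36.3% and 53.9%, as did ATTAAA, with 15.3% and 16.8%. How hexamers were listed enters this order. With an upstream AATAAA or ATTAAA in reach, 0 of the next clusters were listed with a double variant, and a most upstream site has no site of its run before it. How much of the order this makes up was not tested. The most downstream position held 12.6% of double variants, 11.4% of A-rich sites, 11.3% of sites without a hexamer and 14.8% of single variants. By hexamer, the most downstream position held from 7.22% of AAGTAA sites to 15.7% of GATTAA sites, leaving out ATTAAT, and the intervals of these extremes did not overlap. The extremes were picked after the values were seen, and their difference was not tested.

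Their share was higher in larger runs. Among sites with a hexamer, double variants were 0.990% of lone sites (interval 0.902 to 1.09%), 1.62% in runs of 2 (interval 1.46 to 1.80%), 2.26% in runs of 3 to 5 (interval 2.10 to 2.43%), 3.22% in runs of 6 to 9 (interval 2.97 to 3.48%) and 4.21% in runs of 10 or more (interval 3.90 to 4.55%). No 2 of these intervals overlap. Single variants went from 12.5 to 32.5% over the same steps and AATAAA from 62.9 to 30.8%.

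**Figure D4:**
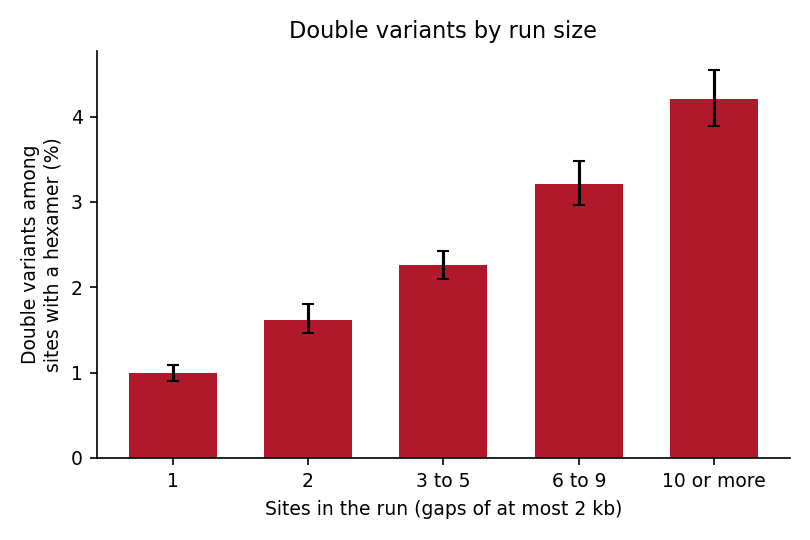
Percent of sites with a hexamer that had a double variant, by the number of sites in the run, with 95% Wilson intervals over sites as bars. The share goes from 0.990% of lone sites to 4.21% in runs of 10 or more, and the intervals do not overlap.

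The 2680 sites were spread over 2389 runs or lone positions, of which 2142 held 1 double variant, 212 held 2 and 1 held 5. That run lay on the minus strand of chromosome 7 from 118214069 to 118223800 (mm9) and had 35 sites over 9732 nt, among them CATTAA at 1 site, AAGTAA at 2 sites and AACAAT at 2 sites. It also held 11 sites without a hexamer, 7 A-rich, 5 single-variant, 4 ATTAAA and 3 AATAAA sites. Pairs of double variants over 100 and up to 1000 nt apart on a strand numbered 114, of which 102 had different hexamers. Double variants were 3.76% of the neighbours of double-variant sites (interval 3.31 to 4.27%) and 3.08% of those of single-variant sites (interval 2.93 to 3.23%), a mean difference over autosomes of 0.834 percentage points ± 1.80 that did not pass (adjusted p = 0.0985, permutation test).

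Compared with single variants, both very narrow and very wide clusters were more frequent. Clusters with a double variant had a median width of 11 nt (quartiles 3 and 25 nt), against 9 nt for single variants (quartiles 3 and 21 nt). Those wider than 50 nt made up 8.13% (interval 7.16 to 9.23%), against 5.34% of single-variant clusters (interval 5.07 to 5.61%) and 10.5% of clusters without a hexamer. Of A-rich sites, 5.75% were this wide. By hexamer, single variants ran from 4.79% for AGTAAA to 9.11% for AATAAT, with AATTAA at 8.08%. The difference from single variants was 2.89 percentage points ± 3.39, positive on 16 of 19 (adjusted p = 0.00323, permutation test). That from clusters without a hexamer was -2.28 ± 3.70 (adjusted p = 0.0297, permutation test).

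Clusters 1 nt wide made up 15.7% of double-variant clusters (interval 14.3 to 17.1%), 13.6% of single-variant clusters and 14.5% of those without a hexamer. A-rich sites stood higher than all of these, at 21.3% (interval 20.6 to 22.0%), and that difference was not tested. By hexamer, single variants ran from 12.6% for ACTAAA to 17.1% for AATAAT, with AATTAA at 15.2%. The difference from single variants was 2.42 percentage points ± 1.95, positive on 16 of 19 (adjusted p = 0.00048, permutation test), and from clusters without a hexamer 1.21 ± 2.29 (adjusted p = 0.0601, permutation test), which missed the threshold. Against single variants it was 1.29 among sites with the hexamer at 15 to 30 nt (adjusted p = 0.264, permutation test) and 1.89 on the plus strand alone (adjusted p = 0.0774), neither of which passed.

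The widest cluster of each hexamer lay inside a run for all 9. The widest of all, with CATTAA at 9 nt, lay at chr10:24317313-24317687 (plus strand) and spanned 375 nt in a run of 8. An AACAAT cluster of 325 nt lay on the minus strand of chromosome 19 from 5844955 to 5845279, with the hexamer at 77 nt, in a run of 28. An AAGAAT cluster of 278 nt lay on the minus strand of chromosome 1 from 88246732 to 88247009, with the hexamer at 70 nt, in a run of 76. The closest pair of double variants was on the minus strand of chromosome 9, from 96371967 to 96371968 and at 96371970, both with TATTAA, listed at 64 and 61 nt. Coordinates are those of mm9, 1-based, and the genes at these positions were not analysed here.

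The share of the class varied little along the genome. Double variants were 2.07% ± 0.172 (SD, n = 19) of sites with a hexamer on autosomes, from 1.76% on chromosome 15 to 2.38% on chromosome 7. They were 1.79% on the X chromosome (70 of 3907 sites, interval 1.42 to 2.26%). The plus strand held 2.05% and the minus strand 2.09%, a mean difference of -0.0265 percentage points ± 0.416 (adjusted p = 0.826, permutation test). A site of the opposite strand lay within 1 kb for 14.5% of double-variant and 13.2% of single-variant sites (difference 0.739 ± 3.70, adjusted p = 0.430, permutation test). Among sites with a neighbour within 1 kb, the nearest lay upstream for 44.1% of double and 47.3% of single variants (difference -2.76 ± 6.41, adjusted p = 0.122, permutation test).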

How the data were processed

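Per the file headers, the authors deposited 1 table of clusters that gives each one's position and strand, the name of a hexamer and its distance in nt. The submitters' processing notes name Trimmomatic, STAR, bedtools and mm9. How read ends were joined into clusters, which libraries entered, the filter against priming inside A-rich sequence, the order of the hexamer search and the point from which distances run are not stated in those notes or the labels. Cluster width was end minus start, and printed starts are 1 higher than in the table. Gaps are between cluster edges, and opposite strands were compared by cluster midpoints.

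Shares have 95% Wilson intervals, and ratios of densities have exact binomial ones, over sites. Differences per autosome were tested with a 2-sided sign-flip permutation test (100000 resamples, smallest p 1e-05) and adjusted by Benjamini-Hochberg over all 48 such comparisons: 22 between classes, 16 with single changes and 10 within the class. Autosomes are not biological replicates, and neighbouring sites are not independent. Scripts were tested on simulated data. Members and lists were chosen with earlier results of these data known. All hexamers of the class are named, and single sites are the widest per hexamer, the closest pair and the run with the most members. Of the 48 comparisons, 8 were set out at the start and 40 added after the table had been seen. The alternatives set out were other windows, reaches and run gaps, either strand, no very narrow or wide clusters, the most downstream sites, a wider rule and each hexamer left out. No genome of the build was used, so only hexamers are shown. Computation used numpy 2.4.6 with scipy 1.17.1 and pandas 2.3.3 under Python 3.11.15, and matplotlib 3.10.9 for plots.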

Additional observations from a re-analysis of the deposited data

Results flagged for a closer look

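Mitochondrial clusters were left out of every comparison above. Among the 66 mitochondrial clusters with a hexamer, 9 had a double variant, or 13.6% (95% Wilson interval 7.34 to 23.9%), beside 2.07% of nuclear clusters with a hexamer. The 3 hexamers with A4T and a change at base 1 were listed at 2 clusters each, as was AAGAAT, and ACTAAT at 1. Of the 9, 3 had the hexamer at 15 to 30 nt. The difference from nuclear clusters was not tested.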

How the results depend on the processing

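Of 192 alternatives over 19 results, 176 kept the direction and the side of the threshold, or stayed within the interval of the value. The difference from single variants in the share at 15 to 30 nt did so in all its alternatives. Adding the 2-base hexamers with 5 A to the class changed the most: the difference from A-rich hexamers at 15 to 30 nt became 2.42 percentage points (against the A-rich hexamers that remained), that in neighbours within 1 kb 1.24 (no longer past the threshold), that in lone sites 0.328, that in AATAAA or ATTAAA neighbours -1.74 and that between strands 0.275. The cause was not tested. The difference from A-rich hexamers was -2.49 among lone and most downstream sites. That in clusters 1 nt wide was 1.89 on the plus strand and, in an alternative chosen after seeing the data, 1.29 at 15 to 30 nt. That in AATAAA or ATTAAA neighbours was -0.671 without clusters wider than 50 nt and 2.56 within 5 kb, and that between strands 0.0102 without clusters 1 nt wide. With a window of 10 to 35 nt the placement ratio was 1.77 for the class, 2.15 for AACAAT and 1.83 for AAGAAT.

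Leaving out each hexamer in turn gave -0.0840 to 1.86 for AATAAA or ATTAAA neighbours, lowest without TATTAA, and -0.0566 to 0.00152 between strands, highest without AAGAAT. Neither difference passed as reported. Hexamers were left out of the 10 tested results only. No left-out hexamer changed a call there, and none changed a direction apart from those of these 2 differences.

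No paired analysis was possible because the table holds no value per library. Depth per library is unknown, and the 2 ATTAAT sites allow no ratio.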
